A study of Arabidopsis thaliana with 18 samples.

Results

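RNA bound by several ribosomes (polysomal RNA) was compared with RNA bound by a single ribosome (monosomal RNA) in leaves of the Arabidopsis thaliana double mutant upf1-3 pad4-1. The comparison used 6 of the 18 libraries of the series, chosen by the genotype and the RNA fraction that the labels give: 3 polysomal and 3 monosomal libraries of the mutant. The same contrast in pad4-1, also with 3 polysomal and 3 monosomal libraries, served as the control. Both genotypes carry pad4-1 in the Columbia-0 background, so the control is a mutant as well, and upf1-3 is what distinguishes them. All plants were 3 weeks old and received no treatment, and whole leaves were used. The labels name the 3 libraries of each group biological replicates, give 1 allele of UPF1, and do not say whether leaves of several plants were pooled.

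During translation, several ribosomes can follow each other along the coding sequence of an mRNA, and a long coding sequence has room for more of them than a short one. Polysome profiling separates transcripts by the number of ribosomes they carry, so the polysome-to-monosome ratio of a transcript is commonly used as a measure of how densely or how often it is translated. UPF1, an RNA helicase, is the core factor of nonsense-mediated mRNA decay (NMD), which acts on ribosomes that terminate at premature or otherwise unusual stop codons. PAD4 promotes defence through salicylic acid.

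Transcripts with very short coding sequences made up most of those that were lower in polysomes. The coding sequences of 3 of them are shown because their length goes with the result described next. They were taken from the RefSeq annotation of TAIR10.1, run 5′ to 3′ on the coding strand, and carry the start and stop codons in capitals. AGP21 lies on chromosome 1 and encodes an arabinogalactan peptide of the cell wall, UBL5 lies on chromosome 5 and encodes a ubiquitin-like protein, and MT3 lies on chromosome 3 and encodes a metallothionein, a cysteine-rich metal-binding protein. Their coding sequences span 177, 222 and 210 nt.
AGP21: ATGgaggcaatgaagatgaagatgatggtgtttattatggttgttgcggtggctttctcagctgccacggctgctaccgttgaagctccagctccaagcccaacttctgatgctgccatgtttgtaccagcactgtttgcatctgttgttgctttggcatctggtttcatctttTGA
UBL5: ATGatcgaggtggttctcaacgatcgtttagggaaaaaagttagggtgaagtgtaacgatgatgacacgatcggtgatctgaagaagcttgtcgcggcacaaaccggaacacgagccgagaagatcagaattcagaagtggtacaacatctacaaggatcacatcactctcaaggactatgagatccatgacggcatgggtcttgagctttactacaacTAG
MT3: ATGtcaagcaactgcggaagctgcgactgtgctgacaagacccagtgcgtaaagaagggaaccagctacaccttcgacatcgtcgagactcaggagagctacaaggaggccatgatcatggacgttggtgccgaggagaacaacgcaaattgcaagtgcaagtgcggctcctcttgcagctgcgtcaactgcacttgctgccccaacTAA

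The 6 libraries held from 27259506 to 54702421 estimated counts, and the 6 control libraries from 16325537 to 46774327. Of 34212 loci in the table, 20895 passed the filter on low counts and were tested. Levels are given below as CPM, that is, counts relative to the library size after scaling by TMM (trimmed mean of M-values), always in the order of replicates 1, 2 and 3. They are not corrected for transcript length, so they are compared between libraries and never between genes. UPF1 itself (symbol LBA1 in the annotation) had 26.4, 32.7 and 65.6 CPM in polysomes, against 37.5, 43.3 and 39.3 CPM in monosomes, and PAD4 had 5.03, 6.76 and 4.03 CPM in polysomes, against 5.25, 6.43 and 2.25 CPM in monosomes. Neither transcript separated the fractions, with log2 ratios of 0.05 and 0.18 (adjusted p = 0.972 and 0.969, edgeR's quasi-likelihood test). In pad4-1, UPF1 averaged 48.6 ± 1.86 CPM in polysomes and 45.9 ± 2.76 CPM in monosomes (SD, n = 3 each), so its reads do not separate the genotypes and do not by themselves check the label. PAD4, mutated in both genotypes, averaged 5.27 ± 1.38 CPM in polysomes and 4.64 ± 2.15 CPM in monosomes of upf1-3 pad4-1, against 0.75 ± 0.604 CPM in polysomes and 1.11 ± 0.97 CPM in monosomes of pad4-1 (SD, n = 3 each), a difference between genotypes that was not tested.

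Ratios are log2 of polysome over monosome, so a positive value is a higher level in polysomes. A locus was called when its Benjamini-Hochberg adjusted p in edgeR's two-sided test was under 0.05. In the mutant, 231 loci (1.11% of those tested) were called, 119 higher in polysomes (0.57%) and 112 lower (0.536%). All 231 differed at least 2-fold, with a median absolute log2 ratio of 1.87. Without the adjustment, 2780 loci (13.3%) had a p under 0.05, 1366 higher (6.54%) and 1414 lower (6.77%), and the 3 polysomal and 3 monosomal values did not overlap at 4283 loci (20.5%). The same-numbered polysomal and monosomal libraries of the mutant deviated together, and with the replicate number as a block 624 loci (2.99%) were called, 282 higher (1.35%) and 342 lower (1.64%). These included 228 of the 231 calls made without the block. DESeq2 called 763 loci (3.65%), 410 higher (1.96%) and 353 lower (1.69%), and limma-voom called 360 (1.72%), 197 higher (0.943%) and 163 lower (0.78%).

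**Figure D1:**
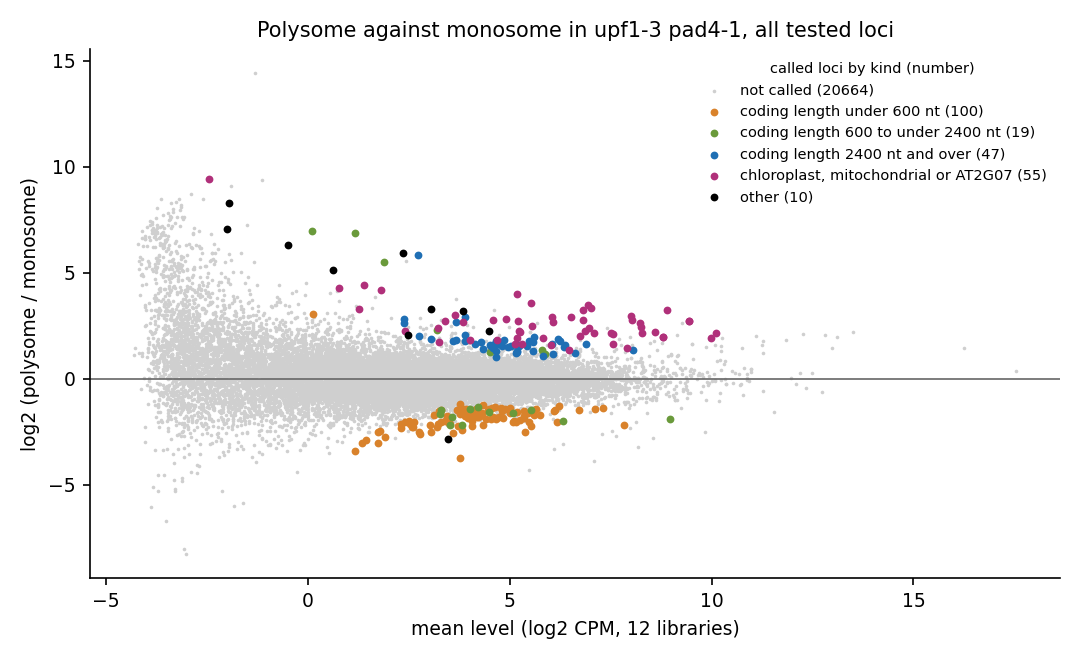
The log2 polysome-to-monosome ratio in upf1-3 pad4-1 (vertical axis) is plotted against the mean log2 CPM over the 12 libraries of the fit (horizontal axis) for each of the 20895 loci tested. Grey marks loci that were not called. Other colours mark the kind of each called locus: coding length under 600 nt, 600 to under 2400 nt, 2400 nt and over, organelle or AT2G07, and other. The 119 loci called higher and the 112 called lower in polysomes lie on both sides of a cloud centred near 0 with a median of 0.03.

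The number of calls depended on single libraries. It was 5 without monosomal replicate 2, 44 without monosomal or without polysomal replicate 3, and 65 without polysomal replicate 2, and it was 386 without monosomal replicate 1 and 316 without polysomal replicate 1. With both replicate 3 libraries left out, 4 loci were called, and with plain library sizes in place of TMM, 8 were called. Polysomal and monosomal replicate 1 were the most alike of the 15 pairs of mutant libraries (Spearman correlation of log CPM 0.966), while the pairs of replicates 2 and 3 had 0.919 and 0.87. The part of this likeness in the calls was not tested.

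Protein-coding genes were ordered by the length of their coding sequence. Genes with a coding sequence under 300 nt had mostly negative ratios, those of 2400 nt and over had mostly positive ones, and the classes between lay in order. The 703 tested genes under 300 nt had a median log2 ratio of -0.99, and 20.5% of them had a positive ratio. Genes from 300 to under 600 nt (2664 tested) had a median of -0.57, and those from 600 to under 1200 nt (6789 tested) had a median of -0.18. Above that, 7363 genes from 1200 to under 2400 nt had a median of 0.16, and 2195 genes of 2400 nt and over had a median of 0.54, with 90.6% positive. The median over all tested loci was 0.03.

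The longest class lay above the shortest in each replicate pair, by different amounts. In the shortest class the medians were -1.01, -1.13 and -0.44 in pairs 1, 2 and 3, and in the longest class they were 0.34, 0.58 and 0.74. Pair 1 was closest to 0 in the longest class and pair 3 in the shortest, where it lay above the next class (-0.59 in pair 3). Among the 2963 coding genes with a mean log2 CPM of at least 5, where counting error is small, the class medians were -1.17, -0.60, -0.23, 0.05 and 0.42 from short to long. Across 19714 coding genes the Spearman correlation between coding length and log2 ratio was 0.469, and within the higher-level genes it was 0.644. All points in these correlations share the same 6 libraries and are not independent, so they describe the data and no p is given. The 5 medians of the fit kept their order in every setting tried. The difference between the longest and the shortest class was 1.53, and over these settings it ran from 1.02 with no filter on low counts to 1.71 without polysomal replicate 1.

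**Figure D2:**
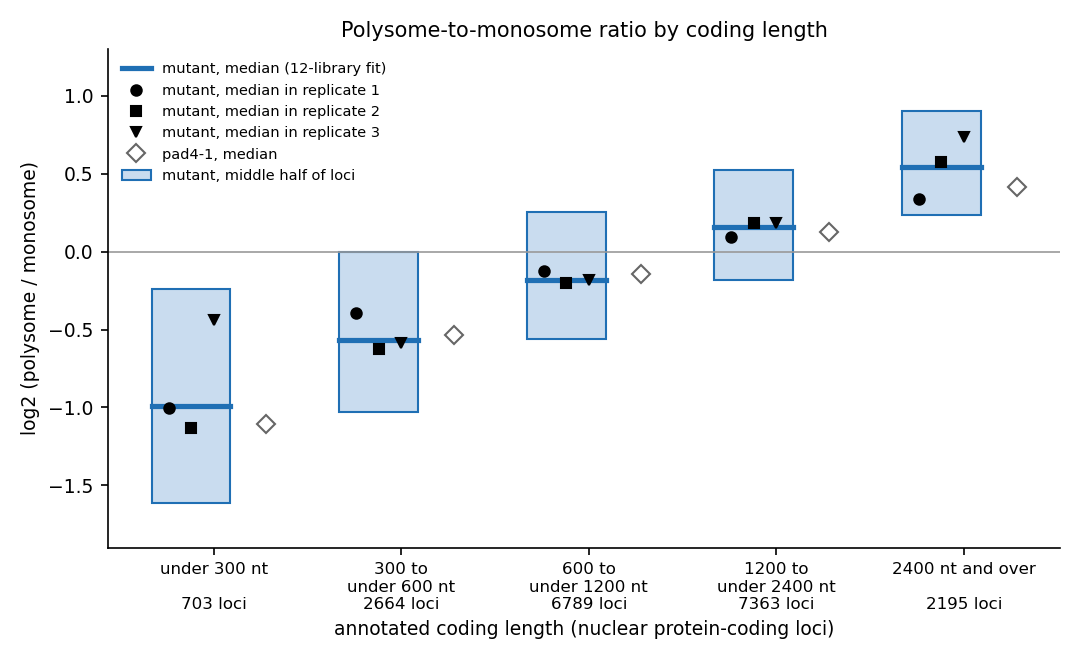
The log2 polysome-to-monosome ratio (vertical axis) is shown for 5 classes of annotated coding length in nt (horizontal axis). Bars span the lower to the upper quartile of the mutant, lines mark its median, filled symbols mark the median in each replicate pair and open diamonds mark the pad4-1 median. Mutant medians climb from -0.99 in the shortest class to 0.54 in the longest, and pad4-1 medians from -1.11 to 0.42.

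The calls followed the same order. Of all tested loci, 0.536% were called lower and 0.57% higher. In the class under 300 nt, 59 genes were called lower (8.39%) and 1 higher (0.142%). In the class from 300 to under 600 nt, 40 were lower (1.5%) and 5 higher (0.188%). The class from 600 to under 1200 nt had 10 lower (0.147%) and 8 higher (0.118%), and the class from 1200 to under 2400 nt had 2 lower (0.0272%) and 7 higher (0.0951%). At 2400 nt and over, 47 were called higher (2.14%) and 0 lower. In that longest class of 2195 tested genes, 549 were higher and 2 lower at an unadjusted p under 0.05 in edgeR. The replicate block called 132 higher, DESeq2 168 and voom 83, each with 0 lower. The higher shares of all tested loci by these rules were, in the same order, 6.54%, 1.35%, 1.96% and 0.943%. In all, 99 of the 111 nuclear coding genes called lower were under 600 nt, and 47 of the 68 called higher were of at least 2400 nt. The median coding length was 3453 nt among those called higher, 288 nt among those called lower and 1170 nt among all tested.

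Small proteins of the cell wall, of mitochondria and of the spliceosome were among the genes that were lowest in polysomes. UBL5, known in yeast and animals as a spliceosome-associated ubiquitin-like protein, had 16.9, 16.4 and 18.1 CPM in polysomes, against 64.7, 114 and 113 CPM in monosomes. Every polysomal library lay below every monosomal one, which the rule for the lowest ratios required, and the polysomal values were close together. The mean was 17.1 ± 0.886 CPM in polysomes and 97.1 ± 28.04 CPM in monosomes (SD, n = 3 each), a log2 ratio of -2.50 (SE 0.29, adjusted p = 0.00195). UBL5 kept its call in all 22 alternative settings, with adjusted p-values up to 0.0484. The smallest adjusted p of all belonged to AT2G02510, annotated as a subunit of NADH dehydrogenase and encoded by 219 nt. It had 4.31, 4.09 and 4.78 CPM in polysomes, against 24.2, 30.4 and 23.3 CPM in monosomes, a log2 ratio of -2.56 (SE 0.281, adjusted p = 0.00183), and it was named here after its values were seen.

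Arabinogalactan peptides, short glycoproteins of the cell wall and plasma membrane, gave 3 of the 12 lowest ratios among called genes with a symbol. AGP21 had 2.11, 2.18 and 2.63 CPM in polysomes, against 8.28, 19.7 and 64.4 CPM in monosomes, a log2 ratio of -3.74 (SE 0.635, adjusted p = 0.0134). Its polysomal values hardly varied, and the monosomal values differed several-fold among themselves without reaching the polysomal range. AGP12 had 4.21, 3.43 and 4.13 CPM in polysomes, against 16.0, 30.8 and 20.4 CPM in monosomes, a log2 ratio of -2.51. AGP15 had 20.8, 24.01 and 22.4 CPM in polysomes, against 55.0, 97.4 and 122 CPM in monosomes, a log2 ratio of -2.03 (adjusted p = 0.0103). None of the 3 overlapped between fractions, which the rule that named them required.

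MT3 had 21.5, 21.4 and 38.9 CPM in polysomes, against 100.1, 104 and 178 CPM in monosomes, a log2 ratio of -2.22 (SE 0.38, adjusted p = 0.0134). Replicate 3 was the highest in both fractions and still differed between them. SNRNP-G, the Sm protein G of spliceosomal particles, had 15.7, 10.4 and 5.67 CPM in polysomes, against 44.0, 39.8 and 27.6 CPM in monosomes, a log2 ratio of -1.80. TOM6, a small subunit of the protein import pore in the outer mitochondrial membrane, had 8.16, 9.38 and 6.52 CPM in polysomes, against 26.4, 26.9 and 26.2 CPM in monosomes, a log2 ratio of -1.72 (adjusted p = 0.0153). The other named genes that were lowest were LEA14, a late embryogenesis abundant protein (-2.14), PABN1, a nuclear poly(A)-binding protein (-2.17), and DOT1, a glycine-rich protein (-2.18). TT5, the chalcone isomerase of flavonoid synthesis, had -1.81, and both EMB3136, annotated as a ribosomal protein of the L10 family, and PRPL28, a plastid ribosomal protein, had ratios of -1.96 and -1.86.

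**Figure D3:**
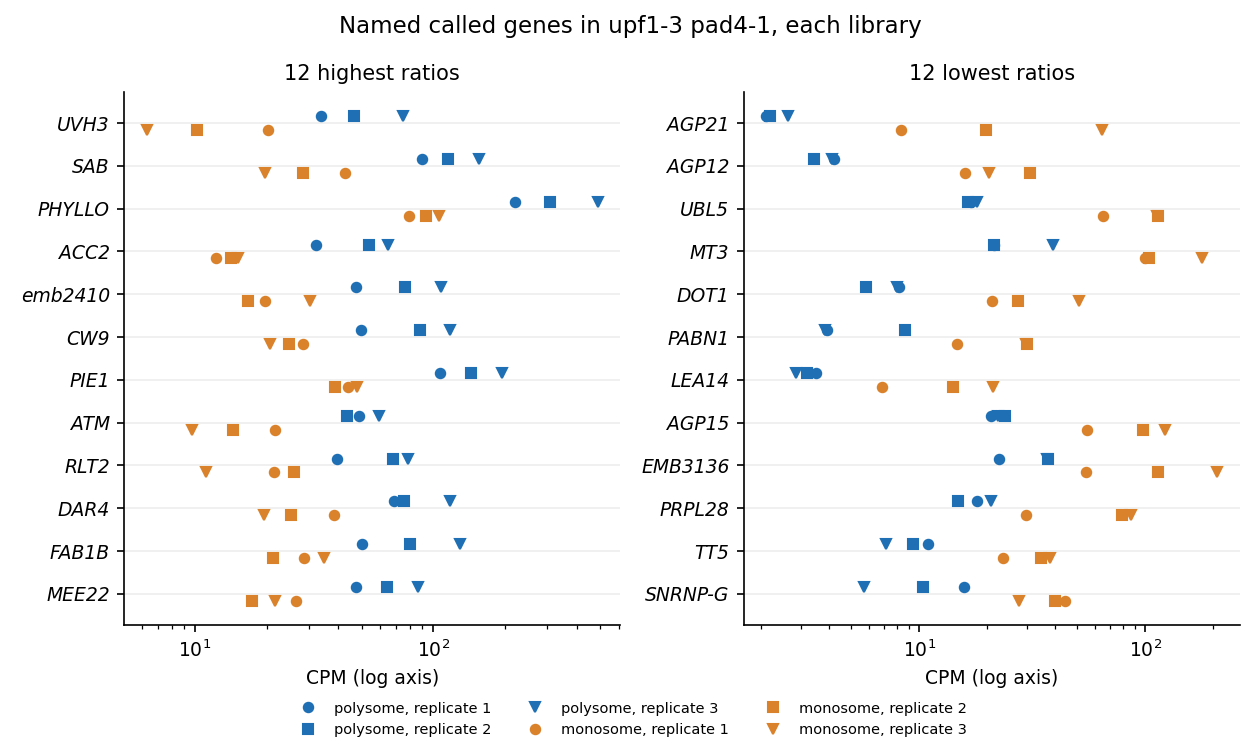
CPM on a log axis (horizontal) is shown in each mutant library for the 12 called genes with the highest (left) and the 12 with the lowest (right) polysome-to-monosome ratios among those that have a symbol, reach a mean log2 CPM of 3 and do not overlap between fractions. Blue marks polysomal and orange monosomal libraries, and the shape marks the replicate. All 24 genes separate by construction of the rule, and for all 12 genes on the left the gap is narrowest in replicate 1.

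Within a list of 43 small secreted and regulatory proteins, 38 were tested, 6 were called lower (15.8%) and 0 higher, and the median log2 ratio was -1.15. All tested genes under 300 nt had 8.39% called lower and a median of -0.99, and of all tested loci 0.536% were called lower. The 6 of the list were UBL5, AGP12, AGP15, AGP21, MT3 and TOM6, and the block called 12 lower (1.64% of all tested loci). Without adjustment, 17 were lower and 0 higher at p under 0.05 in edgeR (6.77% of all tested loci were lower). DESeq2 and voom called 13 and 7 lower and 0 higher (1.69% and 0.78% of all tested loci were called lower). The pairs had medians of -0.74, -1.37 and -0.95, and the median coding length of the tested members was 234 nt. Other metallothioneins had log2 ratios of -2.45 for MT1C, -1.45 for MT2A and -1.17 for MT2B, with adjusted p-values of 0.0599, 0.061 and 0.0821. Signalling peptides of the RALF family spread around 0, from -0.91 for RALF1 to 0.61 for RALF23, and the precursor of the sulfated peptide PSK4 had 0.01. The positive members had adjusted p-values of at least 0.589.

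Cytosolic ribosomal proteins had mostly negative ratios and few calls. Of 109 large-subunit genes, 107 were tested, with 3 called lower (2.8%), 0 higher and a median log2 ratio of -0.57. Of 74 small-subunit genes, 73 were tested, with 5 called lower (6.85%), 0 higher and a median of -0.55. All tested genes of 300 to under 600 nt had 1.5% called lower and a median of -0.57, and of all tested loci 0.536% were called lower. With the replicate block, 15 large-subunit and 8 small-subunit genes were called lower and 0 higher, and with DESeq2 13 and 10 lower and 0 higher. At an unadjusted p under 0.05 edgeR had 41 and 24 lower and 1 and 0 higher. The lower shares of all tested loci by these 3 rules were 1.64%, 1.69% and 6.77%. Voom called 5 large-subunit and 4 small-subunit genes lower (0.78% of all tested loci). The medians of the replicate pairs were -0.11, -0.66 and -1.13 for the large and -0.00, -0.69 and -1.04 for the small subunit, so pair 1 lay near 0 and pair 3 farthest from it. The median coding lengths were 465 and 453 nt.

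Among the ribosomal proteins, AT3G60245, a zinc-binding protein of the large subunit encoded by 279 nt, had 59.9, 103 and 51.3 CPM in polysomes. In monosomes it had 363, 269 and 348 CPM, and its log2 ratio was -2.20 (SE 0.401, adjusted p = 0.0153). The fractions were far apart, with the lowest monosomal library above the highest polysomal one. AT3G06700 and AT3G06680, both of the L29e family, had log2 ratios of -1.41 and -1.38. In the small subunit, AT5G47930 had -1.89, AT2G45710 had -1.78, AT5G27700 (S21e) had -1.72, RS27A had -1.54 and RPS28 had -1.49. These 8 genes have coding sequences of 186 to 279 nt, and as members of families with near-identical copies they may share reads. The shortest members were not called, and the longest had ratios on both sides of 0, such as -0.27 for AT5G02870 (1224 nt) and 0.52 for RP1 (1170 nt), neither of them called.

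Genes whose products form the photosynthetic apparatus had a low median and no call. The list of 59 nuclear photosynthesis genes had 0 called in either direction, a median log2 ratio of -0.60 and 1 called lower under the block, PSBX, a small subunit of photosystem II (-1.31). In edgeR, 13 were lower and 0 higher at an unadjusted p under 0.05 (6.77% of all tested loci were lower). DESeq2 called 4 lower (1.69% of all tested loci) and voom 1 (0.78%). The median was 0.31 in pair 1, -0.79 in pair 2 and -0.80 in pair 3, so the pairs did not share a direction. Left out in turn, the 6 mutant libraries gave medians from -0.84 to -0.18. The 35 core and linker histones had 0 calls and a median of -0.40, and 1 was called lower under the block, HTA6, with 5 lower and 0 higher at an unadjusted p under 0.05 and 1 lower by DESeq2. The 34 translation factors and poly(A)-binding proteins had 0 calls and a median of -0.07, with 3 lower and 1 higher at an unadjusted p under 0.05 and 1 lower by each of DESeq2, voom and the block.

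Several large proteins were called higher in polysomes. BIG, a giant protein needed for auxin transport and encoded by 15297 nt, had 371, 398 and 529 CPM in polysomes, against 189, 162 and 149.5 CPM in monosomes. All 3 polysomal values lay above all monosomal ones, with a mean of 433 ± 84.9 CPM in polysomes and 167 ± 20.3 CPM in monosomes (SD, n = 3 each). The log2 ratio was 1.37 (SE 0.305, adjusted p = 0.0405, and 0.0138 with the replicate block). PIE1, the ATPase of the complex that places the histone variant H2A.Z, had 107, 143 and 194 CPM in polysomes, against 44.0, 38.9 and 48.1 CPM in monosomes, a log2 ratio of 1.76 (SE 0.294, adjusted p = 0.0129). ATM, the kinase of the response to DNA double-strand breaks, had 49.0, 43.4 and 59.3 CPM in polysomes, against 21.6, 14.4 and 9.74 CPM in monosomes, a log2 ratio of 1.73 (adjusted p = 0.017).

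Metabolic and structural proteins were among the highest ratios too. PHYLLO, a fused enzyme of phylloquinone synthesis, had 219.6, 306.9 and 488 CPM in polysomes, against 79.4, 93.5 and 105 CPM in monosomes, a log2 ratio of 1.87 (SE 0.321, adjusted p = 0.0134). ACC2, an acetyl-CoA carboxylase of plastid fatty acid synthesis, had 32.2, 53.9 and 64.8 CPM in polysomes, against 12.2, 14.2 and 15.2 CPM in monosomes, a log2 ratio of 1.86 (adjusted p = 0.0442). SAB, a protein of cell expansion, had 89.7, 116 and 156 CPM in polysomes, against 42.7, 28.3 and 19.7 CPM in monosomes, a log2 ratio of 1.99 (adjusted p = 0.0188). In these 3 genes the polysomal level was lowest in replicate 1 and highest in replicate 3. No polysomal library overlapped a monosomal one, which the rule that named them required.

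The highest ratio by the rule belonged to UVH3, an endonuclease of nucleotide excision repair. It had 33.7, 46.7 and 74.95 CPM in polysomes, against 20.3, 10.2 and 6.31 CPM in monosomes, a log2 ratio of 2.07 (SE 0.449, adjusted p = 0.0344). The remaining named genes were emb2410, an embryo-lethal locus (1.79), RLT2, a homeodomain regulator that works with chromatin remodelers (1.66), FAB1B, a phosphoinositide kinase (1.61), and MEE22, a locus required in embryos (1.59). The 12 named genes of this direction have coding sequences from 2690 nt for CW9 to 9042 nt for ATM, and in each of the 12 the gap between fractions was smallest in replicate 1.

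A list of 34 very large proteins, 34 of them tested, had 1 called higher (BIG, 2.94%), 0 lower and a median log2 ratio of 0.75. All tested genes of 2400 nt and over had 2.14% called higher, 90.6% positive and a median of 0.54. Of the 34, 33 had a positive ratio (97.1%), and the exception was AGO1, the main Argonaute of microRNA silencing, at -0.04. The pairs had medians of 0.50, 0.80 and 0.94. In edgeR, 23 were higher and 0 lower at an unadjusted p under 0.05 (6.54% of all tested loci were higher), and DESeq2 called 11 higher (1.96% of all tested loci). Voom called only 1 higher (0.943% of all tested loci), and the list median was 0.425 with plain library sizes. The replicate block called 7, all higher (1.35% of all tested loci were called higher). They were BIG, the callose synthase CALS1 (1.32), SPI (1.26), the ubiquitin ligases UPL1 (1.08) and UPL2 (1.01), the cytosolic acetyl-CoA carboxylase ACC1 (1.01) and the myosin MYA2 (0.98). The kinase TOR, encoded by 7446 nt, had 0.98 (adjusted p = 0.145), and the dicer genes DCL1 and DCL2 had 0.88 and 1.501 (adjusted p = 0.255 and 0.0908).

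NLR immune receptors, the intracellular sensors of pathogen effectors, had positive ratios throughout their list. Of 26 tested, 26 were positive and 1 was called higher (3.85%), with a median log2 ratio of 0.82. Of all 2195 tested genes of 2400 nt and over, 90.6% were positive and 2.14% were called higher, with a median of 0.54. By edgeR's unadjusted p under 0.05, 12 of the NLR genes were higher and 0 lower, and the replicate block and DESeq2 called 3 of them higher each. The higher shares of all tested loci by these 3 rules were 6.54%, 1.35% and 1.96%. Voom called 2 of the list higher (0.943% of all tested loci), and the list median was 0.418 with plain library sizes. The called gene was DAR4, an NLR with an added LIM domain, with 68.4, 75.1 and 117 CPM in polysomes, against 38.2, 25.3 and 19.5 CPM in monosomes, a log2 ratio of 1.65 (SE 0.352, adjusted p = 0.033). SNC1 had 164, 196.5 and 293 CPM in polysomes, against 83.6, 81.1 and 80.0 CPM in monosomes, a log2 ratio of 1.42 (adjusted p = 0.0923, and 0.0257 with the block). Its fractions did not overlap, and the monosomal values ran from 80.0 to 83.6 CPM. WRR4 had 1.42 (adjusted p = 0.0667, and 0.0166 with the block).

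Within the NLR list, ratios spread from 0.05 to 1.65. The helper NLRs ADR1, ADR1-L1 and ADR1-L2, which act downstream of the sensor receptors, had log2 ratios of 0.36, 0.29 and 0.33 with coding sequences of 2364, 2451 and 2436 nt. RPP4, SNC1 and DAR4 had 1.24, 1.42 and 1.65 with 3444, 4314 and 4842 nt, while RPP5 had 0.80 with 4350 nt. The median coding length of the list was 2755.5 nt. SUMM2, the receptor that guards a MAP kinase cascade, had 1.00 (adjusted p = 0.157), and CW9, a disease resistance gene outside the list, was called with a log2 ratio of 1.78 from 49.5, 87.8 and 117 CPM in polysomes, against 28.5, 24.95 and 20.6 CPM in monosomes.

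**Figure D4:**
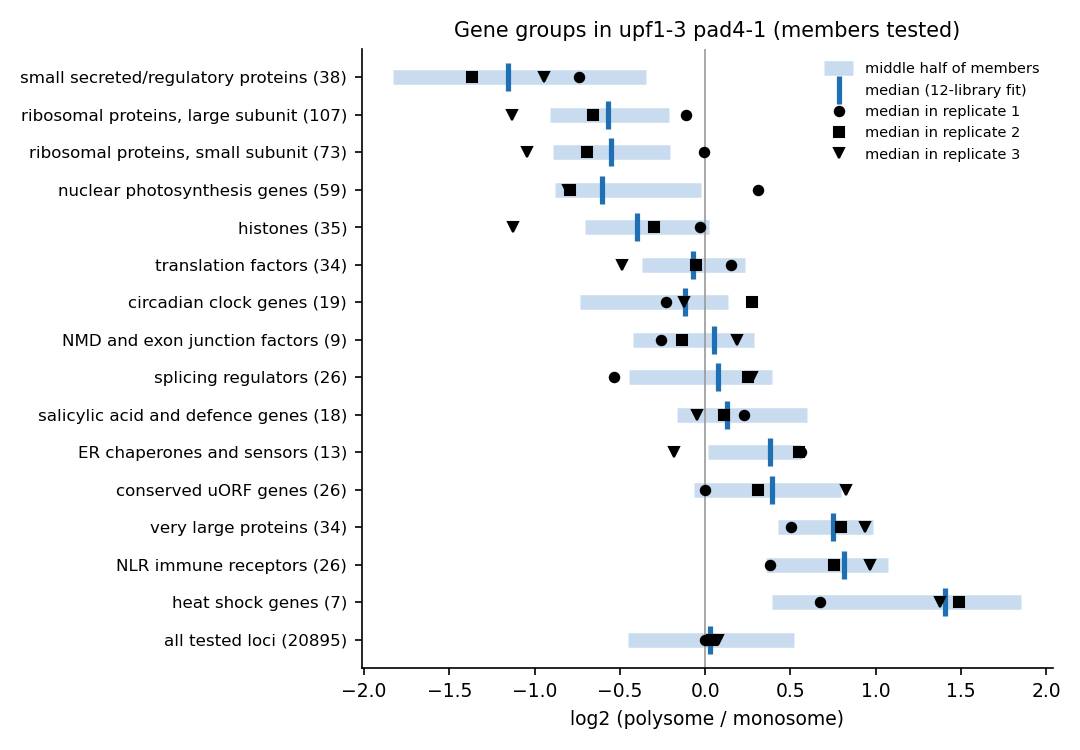
The log2 polysome-to-monosome ratio in upf1-3 pad4-1 (horizontal axis) is shown for 15 gene lists and for all tested loci, with the number of tested members in brackets. Bars span the lower to the upper quartile, lines mark the median of the 12-library fit and symbols the median of each replicate pair. Small secreted and regulatory proteins lie at -1.15 and NLR immune receptors at 0.82, and replicate pair 1 lies nearer 0 than the other pairs in the lists of ribosomal proteins.

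Some called genes did not follow length. Outside the region AT2G07, 8 called genes were higher in polysomes with a coding sequence under 2400 nt, and 5 of them were above 1 CPM in all 6 libraries. AT4G39040, an RNA-binding protein with a CRM domain encoded by 891 nt, had 57.3, 61.8 and 62.1 CPM in polysomes, against 25.3, 16.4 and 29.0 CPM in monosomes, a log2 ratio of 1.36 (adjusted p = 0.033). AT5G09460 encodes the transcription factor bHLH143 in 981 nt, after a conserved upstream open reading frame in its leader. It had 188, 232 and 294 CPM in polysomes, against 118, 98.8 and 103 CPM in monosomes, a log2 ratio of 1.16 (SE 0.262, adjusted p = 0.0442). AT2G40480 (1.28), AT2G45590, a protein kinase (2.32), and AT5G28390, an RNA-binding protein (3.07), were the others.

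The remaining 3 of these genes were nearly absent from monosomes. AT1G40104 had 7.42, 51.3 and 49.3 CPM in polysomes, against 1.27, 0.486 and 0.526 CPM in monosomes, a log2 ratio of 5.53. BON1, a copine that restrains the immune receptor SNC1, had 4.16, 9.67 and 27.7 CPM in polysomes, against 0.287, 0 and 0 CPM in monosomes. AT3G22970 had 0, 9.16 and 12.1 CPM in polysomes, against 0.0547, 0.106 and 0 CPM in monosomes, so its fractions overlapped. These low levels make the sizes of the ratios uncertain, and BON1 and AT3G22970 are given without a fold for that reason.

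In the other direction, 12 called genes were lower with a coding sequence of at least 600 nt. AT1G07590, a tetratricopeptide repeat protein encoded by 1605 nt, had 186, 330 and 384 CPM in polysomes, against 721, 1569 and 1009 CPM in monosomes, a log2 ratio of -1.87 (SE 0.381, adjusted p = 0.025). No polysomal library reached the lowest monosomal one. FBH1, a transcription factor of the photoperiodic flowering pathway, had -1.47 and PHOS32, annotated as an adenine nucleotide hydrolase-like protein, had -1.34. AT4G13720, an inosine triphosphate pyrophosphatase that clears abnormal nucleotides, had 9.83, 12.4 and 9.38 CPM in polysomes, against 26.7, 28.6 and 28.2 CPM in monosomes, a log2 ratio of -1.40.

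Lists tied to NMD and to upstream reading frames were examined because UPF1 is mutated. The 9 tested NMD and exon junction complex factors had 0 calls and a median log2 ratio of 0.05, which was -0.38 with plain library sizes and -0.06 with the block. Of these, MAGO and EIF4A-III, core members of the exon junction complex, had -0.73 and -0.63, and AT2G39260, the UPF2 locus, had 0.72, none past the threshold. At an unadjusted p under 0.05 edgeR had 1 of these factors higher (6.54% of all tested loci were higher), and DESeq2, voom and the block called 0. The 26 splicing regulators with known NMD isoforms had 0 calls and a median of 0.08, which was -0.31 with plain library sizes and -0.05 with voom. Here 1 was higher and 2 lower at an unadjusted p under 0.05 (6.54% and 6.77% of all tested loci), and DESeq2 called 1 higher (1.96% of all tested loci). The 26 genes whose leader holds a conserved upstream open reading frame had 1 called higher (AT5G09460, 3.85%, against 0.57% of all tested loci) and 0 lower. Their median was 0.39, with pairs at 0.00, 0.31 and 0.83, and it was 0.136 with plain library sizes. At an unadjusted p under 0.05 edgeR had 4 higher and 0 lower (6.54% and 6.77% of all tested loci). DESeq2 called 2 higher, and voom and the block 1 each (1.96%, 0.943% and 1.35% of all tested loci). SAC51, a bHLH gene related to AT5G09460, had 0.64 (adjusted p = 0.705), and VTC2, an ascorbate synthesis enzyme, had 0.44 (adjusted p = 0.756).

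Among all genes of similar coding length, annotated features linked to NMD went with small differences. Upstream frames were counted only where they ended before the main start codon, so frames that overlap the coding sequence were not counted. Genes of 600 to under 1200 nt had a median log2 ratio of -0.18 with 2 or more AUG-started upstream frames (2366 genes), -0.18 with 1 (1324 genes) and -0.19 with none (2769 genes). Those with an upstream frame of at least 16 codons had a median of -0.16. Where an exon junction lay more than 50 nt past the stop codon in any annotated isoform, genes had a median of -0.27 (638 genes), against -0.17 for genes without one (5821 genes). In the class of 1200 to under 2400 nt these medians were 0.10 (755 genes) and 0.15 (6146 genes). A 3′ UTR over 350 nt went with medians of -0.19 and 0.11 in the classes of 600 and 1200 nt, against -0.18 and 0.16 for shorter ones. All of these differences were smaller than that between the medians of the 2 classes of coding length, -0.18 and 0.16, and none was tested.

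Other lists had no call in edgeR's unblocked test. The 18 salicylic acid and basal defence genes had a median log2 ratio of 0.13, which was -0.15 with plain library sizes, the 19 circadian clock genes had -0.12 and the 13 endoplasmic reticulum chaperones and stress sensors had 0.38. At an unadjusted p under 0.05 edgeR had 1 defence gene on each side, 1 clock gene lower and 1 endoplasmic reticulum gene higher. In these 3 lists DESeq2 called 1, a clock gene that was lower. Of all tested loci, 6.54% were higher and 6.77% lower at that unadjusted p, and DESeq2 called 1.96% higher and 1.69% lower. Of 9 heat shock genes, 7 were tested, with a median of 1.41, and 2 were higher at an unadjusted p under 0.05. DESeq2, voom and the block each called 1 higher (1.96%, 0.943% and 1.35% of all tested loci). HSP101, the chaperone that dissolves protein aggregates, had 39.4, 41.2 and 42.5 CPM in polysomes, against 19.7, 6.41 and 6.06 CPM in monosomes, a log2 ratio of 1.93 (adjusted p = 0.0723, and 0.0185 with the block). Polysomal values were level and monosomal replicate 1 stood above the other two. The 6 tested precursors of trans-acting siRNAs and phosphate-linked non-coding RNAs had 0 calls and a median of -0.99, from -1.89 for TAS1A to 0.19 for AT5G03545, with 1 lower at an unadjusted p under 0.05.

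Markers of cell types were used to check that both fractions came from leaf. The 4 vascular, 4 guard and myrosin cell and 4 epidermal markers had 0 calls, with median log2 ratios of -0.05, -0.14 and 0.10, the last being -0.22 with plain library sizes. At an unadjusted p under 0.05 edgeR had 1 vascular marker higher, which DESeq2 and the block called, SUC2. Of all tested loci, 6.54%, 1.96% and 1.35% were higher by these rules. TGG1, the myrosinase of guard and myrosin cells, had 2040, 1580 and 1860 CPM in polysomes, against 1400, 1510 and 1720 CPM in monosomes. The 3 root hair markers were at or under 0.75 CPM in polysomes and at 0 in monosomes, and were not tested. Of 7 flower and seed markers 5 were tested, with 0 calls in edgeR and 1 higher under the block, and none exceeded 3.81 CPM in polysomes or 2.18 CPM in monosomes. Whole leaves were used, so a ratio cannot be assigned to a cell type from these data.

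Organelle loci had mostly positive ratios, and no organelle locus was called lower. Of 79 tested chloroplast loci, 9 were called higher (11.4%, against 0.57% of all tested loci), 71 had a positive ratio and the median log2 ratio was 1.32. Of 89 tested mitochondrial loci, 20 were called higher (22.5%), 84 were positive and the median was 2.14. The nuclear loci whose names start with AT2G07 lie in a stretch of chromosome 2 that copies mitochondrial DNA, and 26 of 129 tested were called higher (20.2%), with a median of 2.65. At an unadjusted p under 0.05 edgeR had 2 chloroplast loci lower, as did the block among its calls, and 0 mitochondrial or AT2G07 loci. Together the 3 classes gave 55 of the 119 higher calls (46.2%), or 94 of the 282 with the replicate block. Reads of the AT2G07 loci and of the mitochondrial genome could have been shared by the authors' counting, so their values are uncertain. Likewise, 2 pairs among the 9 called chloroplast loci (ATCG00860 with ATCG01280, and ATCG00890 with ATCG01250) have identical values in every library, so each pair is a single measurement.

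The organelle loci named here had no annotation in the table used and are given by identifier. ATCG00170 had 899.5, 1663 and 3731 CPM in polysomes, against 167, 239 and 257 CPM in monosomes, a log2 ratio of 3.25 (SE 0.524, adjusted p = 0.0106). ATMG00520 had 91.7, 197 and 482 CPM in polysomes, against 26.3, 11.8 and 9.47 CPM in monosomes, a log2 ratio of 4.01 (SE 0.624, adjusted p = 0.0103). In both, replicate 3 was highest in polysomes and the fractions were far apart. AT2G07708 had 198, 256 and 638 CPM in polysomes, against 44.9, 46.8 and 53.8 CPM in monosomes, a log2 ratio of 2.91 (adjusted p = 0.00657). AT2G07698, annotated as the alpha subunit of the F1 ATPase, had 1971, 3096 and 5114 CPM in polysomes, against 736, 652 and 864 CPM in monosomes, a log2 ratio of 2.18 (adjusted p = 0.0314).

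The most abundant organelle loci were not called. ATCG00020 had 127000, 77740 and 216700 CPM in polysomes, against 175300, 76230 and 73730 CPM in monosomes, a log2 ratio of 0.37 that was -0.04 with plain library sizes. ATCG00490 had 1.47 (adjusted p = 0.519) and ATCG00340 had 2.23 (adjusted p = 0.217, and 0.0215 with the block). Of the most abundant mitochondrial loci, ATMG01390 had 1.91 (adjusted p = 0.317), ATMG00020 had 0.28, which was -0.07 with plain library sizes, and ATMG01080 had -0.01, which was 0.03 with DESeq2's size factors. Chloroplast loci took 33.6, 36.1 and 53.3% of the counts in polysomal libraries, against 36.4, 20.7 and 23.8% in monosomal ones, so replicate 1 did not share the direction of replicates 2 and 3. Mitochondrial loci took 1.81, 3.07 and 2.22% in polysomes, against 2.63, 1.11 and 0.883% in monosomes. The part of these shares in the ratios of other loci was not tested, and without organelle loci in the scaling and the test 179 loci were called, all of them among the 231.

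Pseudogenes, and coding loci without counts in total RNA, were detected more often in polysomal than in monosomal libraries. Of 3892 annotated nuclear pseudogenes, 1629, 2517 and 1909 (41.9, 64.7 and 49.0%) had at least 1 count in polysomes, against 880, 426 and 286 (22.6, 10.9 and 7.35%) in monosomes. The total RNA libraries of the same genotype had 734, 766 and 653. The lowest polysomal library lay above the highest monosomal one, and the widest gaps were in replicates 2 and 3. Of 4219 coding loci with 0 counts in all 3 total RNA libraries of the mutant, 750, 1440 and 794 (17.8, 34.1 and 18.8%) had at least 1 count in polysomes, against 364, 116 and 71 (8.63, 2.75 and 1.68%) in monosomes. Of these 4219 loci only 30 had enough reads to be tested. Numbers of detected loci grow with depth, and the paired libraries had similar totals, with 51877919, 33498339 and 27259506 counts in polysomes and 54702421, 33001713 and 30475193 counts in monosomes. Nuclear protein-coding loci took 62.6, 58.0 and 41.2% of these counts in polysomes, against 59.1, 72.7 and 73.0% in monosomes, so polysomal replicates 2 and 3 held fewer counts on them than their monosomal partners.

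**Figure D5:**
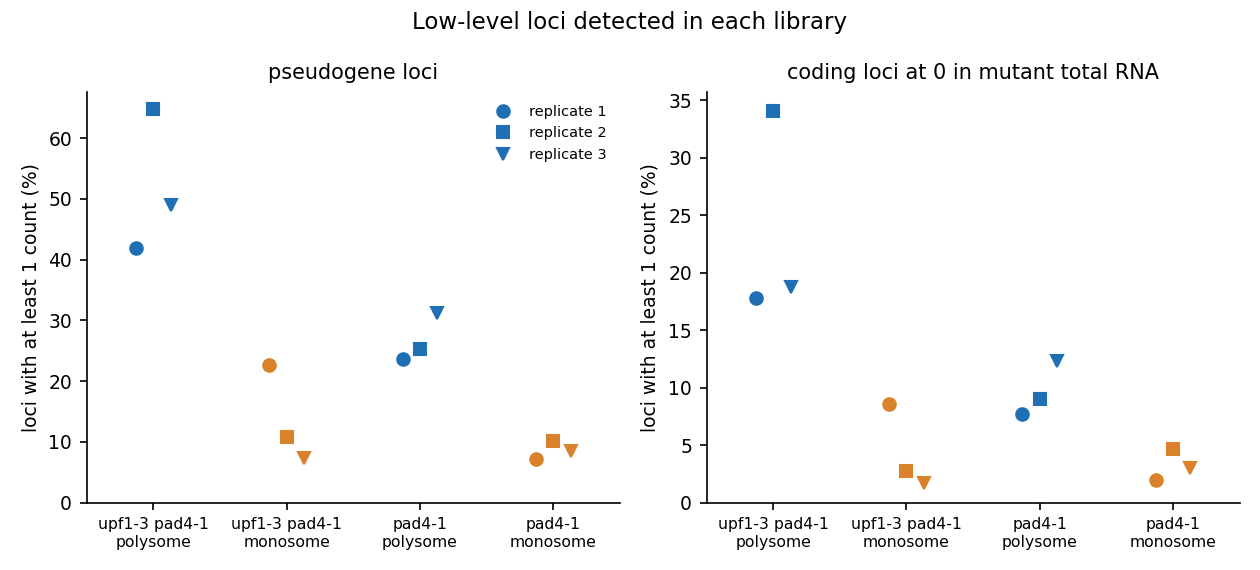
The percentage of loci with at least 1 count (vertical axis) is shown for each library, for 3892 nuclear pseudogenes and for 4219 coding loci that had 0 counts in the total RNA of upf1-3 pad4-1. Each point is a library. The mutant polysomal libraries reach 41.9 to 64.7% of the pseudogenes and the mutant monosomal ones 7.35 to 22.6%, and in pad4-1 the polysomal libraries lie at 23.7 to 31.3%.

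Called non-coding loci outside the organelle copies were few. The pseudogene AT1G35115 had 48.6, 76.1 and 148 CPM in polysomes, against 14.04, 8.10 and 7.59 CPM in monosomes, a log2 ratio of 3.20 (adjusted p = 0.00657). The pseudogene AT2G13970 had 42.9, 94.8 and 177 CPM in polysomes, against 17.5, 3.78 and 10.7 CPM in monosomes, a log2 ratio of 3.29. Both separated the fractions with polysomal values that differed several-fold among themselves. The non-coding RNA AT1G10682 went the other way, with 2.90, 3.55 and 2.77 CPM in polysomes, against 20.1, 30.2 and 16.5 CPM in monosomes, a log2 ratio of -2.85 (adjusted p = 0.0134). Of all 449 tested nuclear pseudogenes, 12 were called higher (2.67%, against 0.57% of all tested loci). That count includes pseudogenes among the AT2G07 loci, such as AT2G07080. Since only pseudogenes with enough reads in some library were tested, it follows partly from the filter.

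The same contrast in pad4-1 had fewer calls in the 12-library fit and no call in the opposite direction. There, 69 loci were called (0.33%), 32 higher and 37 lower. With the replicate block 481 (2.3%) were called, although the numbers pair the pad4-1 libraries less clearly. The order of the counts turned when each genotype was fitted on its own 6 libraries, with 7 calls in the mutant and 104 in pad4-1. Of the mutant's 231 calls, 51 were also called in pad4-1 in the same direction, which is 22.1% of the mutant's and 73.9% of the control's calls, and 0 were called in opposite directions. All 231 had the same sign in pad4-1. No library is shared between the genotypes, but the spread behind the calls was estimated over all 12 libraries. The share of all tested loci with the same sign in both genotypes was not counted. The pad4-1 medians by coding length were -1.11, -0.54, -0.14, 0.13 and 0.42 from short to long, in the same order as in the mutant.

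For single genes the ratios were set side by side. UBL5 had -2.50 in the mutant and -1.82 in pad4-1, MT3 had -2.22 in the mutant and -2.30 in pad4-1, and BIG had 1.37 in the mutant and 1.15 in pad4-1. PHYLLO had 1.87 in the mutant and 0.19 in pad4-1, and CW9 had 1.78 in the mutant and 0.31 in pad4-1. The list medians were -1.15 in the mutant and -1.24 in pad4-1 for small secreted and regulatory proteins, 0.82 in the mutant and 0.59 in pad4-1 for NLR receptors, and 0.75 in the mutant and 0.40 in pad4-1 for very large proteins. Chloroplast loci had medians of 1.32 in the mutant and 1.25 in pad4-1, and mitochondrial loci had 2.14 in the mutant and 1.74 in pad4-1.

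The difference of the ratio between genotypes was tested as an interaction over the 12 libraries. No locus was called (0 of 20895, smallest adjusted p = 0.9999), while 493 (2.36%) had an unadjusted p under 0.05. The block also called 0, with 653 at an unadjusted p under 0.05, DESeq2 called 2, and edgeR without the filter on low counts called 48. The interaction of PHYLLO was 1.67 on the log2 scale (SE 0.443, unadjusted p = 0.00162) and that of CW9 was 1.47 (SE 0.46, unadjusted p = 0.00558). Neither passed the adjustment over all loci. Pseudogenes with at least 1 count in pad4-1 numbered 922, 985 and 1219 in polysomes, against 281, 396 and 332 in monosomes.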

How the data were processed

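Leaf RNA was sequenced after ribosomal RNA depletion as single-end, strand-specific libraries, per the labels' protocols. The deposited values were expected counts per locus, that is, estimated counts. The submitters' processing notes name kallisto 0.43.0, limma and the TAIR10 build without saying what each did, and how transcripts were summed per locus is not given in the sources used here. Reads shared between near-identical copies may be split among them. Of 34212 loci, 33437 (97.7%) matched the RefSeq TAIR10.1 annotation, which gave symbols, coding lengths (longest annotated) and sequences.

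Estimated counts were rounded to whole numbers. edgeR 4.0.16 in R 4.3.3 fitted 12 polysomal and monosomal libraries with 1 mean per group (8 residual degrees of freedom), after filterByExpr with a count minimum of 10 and TMM scaling, and tested with the quasi-likelihood F test, two-sided, with Benjamini-Hochberg adjustment at 0.05. CPM values are scaled by TMM, and SE is the log2 ratio over the square root of F. Depth is the total of estimated counts per library. The alternatives were a replicate block (4 residual degrees of freedom), DESeq2 1.42.0, limma 3.58.1 (voom), plain library sizes, no filter, other sets of loci and leaving out libraries. Same-numbered mutant libraries deviated together (r = 0.213, 0.135 and 0.17 over loci, against -0.0114 to -0.156 for other numbers), so the numbers were taken to pair them. In pad4-1 the same numbers had r = 0.314, 0.0544 and 0.0874. There, polysomal replicate 2 with monosomal 3 had 0.109, and polysomal 3 with monosomal 2 had 0.115. The pairing of replicates 2 and 3 in pad4-1 is therefore uncertain, and the block was applied there by number all the same.

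The members, gene lists, classes and rules were chosen with earlier results of these data known. The rule for named genes took UPF1 and PAD4, the 12 highest and 12 lowest ratios among called genes that have a symbol, reach a mean log2 CPM of 3 and do not overlap between fractions, up to 4 called members per list, and the 3 most abundant loci of each organelle. Other genes named in the text were chosen after their values were seen.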

Additional observations from a re-analysis of the deposited data

How the results depend on the processing

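The order of the 5 coding length classes and the direction of every called gene named by the rule held in all alternatives, while the number of calls did not. In the mutant the calls were 763 with DESeq2 (410 higher, 353 lower), 797 with no filter on low counts (402 higher, 395 lower), 624 with the replicate block (282 higher, 342 lower) and 360 with voom (197 higher). They were 8 with plain library sizes (5 higher, 3 lower), 7 with only the 6 mutant libraries (3 higher, 4 lower) and 4 without both replicate 3 libraries (1 higher, 3 lower). The last alternative and the next 2 were chosen after seeing the data: nuclear coding loci alone gave 61 higher, and leaving out AT2G07 and organelle loci gave 139 in all, 61 of them higher. Leaving out 1 library gave 5 to 386 calls, 1 to 210 higher and 4 to 176 lower. In pad4-1 the calls were 493 with DESeq2, 577 with no filter, 481 with the block, 104 with only its 6 libraries, 33 without organelle loci, 0 with plain library sizes and 2 to 140 without 1 library. The genotype difference had 2 calls with DESeq2, 48 with no filter and 0 without any 1 library. The cause of these shifts was not tested.

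Plain library sizes moved the median of all tested loci to -0.27, against 0.03, and the class medians from 300 nt upward to -0.84, -0.47, -0.15 and 0.22. With no filter the median of all loci was 0.25, and the 4 shorter classes had -0.45, -0.23, -0.0102 and 0.24. The class of 600 to under 1200 nt had -0.13 with the block, -0.11 with voom, -0.12 without AT2G07 and organelle loci and -0.23 in genes with a mean log2 CPM from 5 up, and the class of 1200 to under 2400 nt had 0.22 and 0.047 in the last 2. Without 1 library the class medians ran from -1.10 to -0.85, -0.67 to -0.42, -0.27 to -0.13, 0.14 to 0.21 and 0.47 to 0.61. Of the 33 called genes named by the rule, 33 stayed called with the block and with DESeq2, 29 with voom, 2 with plain library sizes, 1 with the 6 mutant libraries and 1 without monosomal replicate 2. With 3 libraries a group and values that spread several-fold between replicates, genes of low level and small ratios cannot be resolved.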

Other observations

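Nuclear-encoded subunits of the mitochondrial respiratory chain and ATP synthase, taken by product name after the data had been seen, had a negative median ratio. Of 87 such genes 80 were tested, with 12 called lower (15%, against 0.536% of all tested loci), 1 higher and a median log2 ratio of -0.75. The gene called higher was AT2G07777, which lies in the stretch of chromosome 2 that copies mitochondrial DNA, so its value is uncertain. The replicate block called 20 genes of this class lower and 3 higher (1.64% and 1.35% of all tested loci). The median coding length of the tested members was 357 nt. All tested genes of 300 to under 600 nt had 1.5% called lower and a median of -0.57, and those under 300 nt had 8.39% and -0.99. AT3G46430, a small subunit of ATP synthase encoded by 168 nt, had 8.33, 7.98 and 7.74 CPM in polysomes, against 25.9, 50.7 and 33.5 CPM in monosomes, a log2 ratio of -2.20 (adjusted p = 0.0103, edgeR's quasi-likelihood test). AT4G28060, a subunit of cytochrome c oxidase, had 8.00, 5.41 and 3.05 CPM in polysomes, against 21.8, 24.1 and 30.1 CPM in monosomes, a log2 ratio of -2.20. AT3G10860, a subunit of the cytochrome bc1 complex, had 3.36, 4.87 and 5.53 CPM in polysomes, against 14.1, 21.7 and 22.3 CPM in monosomes, a log2 ratio of -2.08. In each of these the highest polysomal library lay below the lowest monosomal one. The mitochondrially encoded loci, by contrast in sign, had a median of 2.14.

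AT2G08986, a protein of unknown function encoded by 3657 nt, had 8.27, 59.6 and 68.3 CPM in polysomes, against 1.03, 0.74 and 0.601 CPM in monosomes, a log2 ratio of 5.83 (SE 0.748, adjusted p = 0.00383). The pseudogene AT2G10600 had 6.84, 57.7 and 67.1 CPM in polysomes, against 0.67, 0.909 and 0.526 CPM in monosomes, and AT1G40104, given above, had a similar set of values. In all 3, polysomal replicate 1 lay several-fold below polysomal replicates 2 and 3.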
